A study of Mus musculus with 48 samples.

Results

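The change in newly made RNA over the first 45 min after release from mitosis was measured in mouse embryonic stem cells (strain 129S5/SvEvBrd) of the Smarce1-MD clones MD09 and MD30. SMARCE1 belongs to the BAF (SWI/SNF) remodellers, which use ATP to move nucleosomes, and in these cells, called MD here, it is made so as to be degraded in mitosis. The libraries were chosen by their labels: 4 at 45 min and 4 at 0 min, 2 per clone and time, which is 8 of the 48 libraries of the study. The other libraries used for comparison were those of the same 2 clones growing asynchronously or collected at 90, 180 and 240 min, and those of clones A04 and A10, which carry the R42A form of the same construct, Smarce1-MD(R42A). R42A cells thus also carry an engineered Smarce1, and cells without the construct were not analysed here. Each genotype rests on 2 clones. Time was counted from release out of 100 ng/ml nocodazole, a microtubule inhibitor that holds cells in mitosis, given for 6 h before mitotic cells were shaken off and washed. Cells grew on gelatin with serum and LIF.

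Nascent RNA was tagged with 5-ethynyluridine (EU), a uridine analogue that cells build into RNA as it is made, and captured before sequencing. Most transcription stops in mitosis. At mitotic exit RNA polymerase II starts again at promoters and has to travel the length of a gene before its far end is read, so position along a gene is a coordinate of its own in data of this kind. A nascent RNA library also holds introns and the stretch past the annotated end, where polymerase continues before it lets go.

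Counts credited to features numbered 1634204 to 2782686 per library at 45 min, against 815733 to 1022255 at 0 min. Reads in no annotated feature made up 90.7 to 91.1% of a 45 min table and 91.7 to 92.2% of a 0 min table. Depth therefore moved with time, and its part in the results was not tested. CPM values are counts scaled to a common library total (TMM), so a change is relative to the other features of the library and says nothing of the total amount of RNA per cell. Fewer cells making an RNA and less RNA per cell cannot be told apart. The replicate was the clone (n = 2). The fit held 24 sums and a term per clone, which removes constant differences between clones. The p-values therefore measure how far clones differ in their changes, pooled over all conditions and both genotypes. Behind a CPM mean, ± is the SD over the 2 clones, and behind a log2 change it is the SE of the fit. The sources used here do not say whether a clone's 2 libraries are separate cultures. The stem cell marker genes Pou5f1 (109 to 156 counts at 45 min, 43 to 67 at 0 min), Nanog (34 to 50 and 29 to 47) and Esrrb (857 to 1952 and 513 to 875) were detected in all 8 libraries, while Sox2, a defining marker, held 0 counts in each. Why Sox2 held none was not tested, so this is not read as a silent gene.

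The annotated strand needs a word before any gene is named. The 4739 features lying whole inside a protein-coding gene on the other strand held a median of 24.2 counts per kb over the 8 libraries, and 13.4% of all counts. Protein-coding features that overlapped no gene held a median of 2.46 counts per kb. Of 4477 features lying inside a protein-coding gene on the same strand, 97.8% held 0 counts. Xist, the X-inactivation RNA, was credited 2271 to 4327 counts per library at 45 min and Tsix, its antisense partner, 23 to 51. Kcnq1 was credited 4752 to 8589 counts and Kcnq1ot1, the imprinted antisense RNA inside it, 62 to 83. In 1238 genes, the gene's own counts and those of features nested inside it on the other strand each reached 100 over the 8 libraries. There the density of own counts was a median of 0.0451 of the density of nested counts. Across these genes the log2 changes of the 2 readings were only weakly related (Pearson r 0.24, Spearman rho 0.22, a description over genes that share libraries). The gene lists below rest on the own-feature reading unless said otherwise. By that reading a rise or fall is that of the named feature. Whether the RNA of the gene so named changed alike was not tested. Counts per kb were thus higher on features inside a protein-coding gene on the other strand, though these held only 13.4% of all counts. The sources used here do not give the strand setting of the counting. Which strand the reads credited to a feature came from was not tested. For this reason genes are read in 2 ways below, one by the named feature and one, called nested, that sums for each protein-coding gene the counts of features lying inside it alone on the other strand. The nested reading was set up after the data had been seen.

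Over the first 45 min, 9595 of 23874 features tested changed in MD cells (40.2%; edgeR's quasi-likelihood test, adjusted p under 0.05). Of these, 5515 rose (23.1% of features tested) and 4080 fell (17.1%), 3299 and 2229 of them by more than 1 log2 unit. The median over all features was 0.10. Risers made up 57.5% of the calls, but 47.0% with the size factors of DESeq2 in place of TMM, which put the median at -0.04, and 45.4% with DESeq2 itself. The share was 47.9% without the 90 min libraries and 50.4% with the MD sums alone. Over all alternatives it ran from 45.4 to 59.0%. The split between risers and fallers therefore depends on the scaling and on the libraries in the fit. Smarce1 itself (chromosome 11, on mm10) stood at 31.1 and 30.6 CPM in MD09 and 19.1 and 27.4 CPM in MD30 at 45 min, against 23.8 and 31.2 CPM in MD09 and 23.5 and 27.8 CPM in MD30 at 0 min. The groups overlapped (log2 change 0.09 ± 0.19 SE, adjusted p = 0.735), and the sign of the change turned under other scalings and sets of libraries. SMARCE1 protein was not measured here.

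The change varied with distance from the start of the gene being read. In nested features (3085 tested, 18.1% higher and 28.1% lower), those whose midpoint lay within 5 kb of the start of the gene around them had a median log2 change of 0.55, with 121 of 315 higher and 17 lower. Between 5 and 10 kb the median was 0.59, with 116 of 295 higher and 23 lower. Between 10 and 20 kb it was 0.35, with 149 of 494 higher and 61 lower.

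Near 20 to 40 kb the direction turned. There the median was 0.03, or -0.11 with the size factors of DESeq2, and 114 of 591 features were higher and 102 lower. Between 40 and 80 kb the median was -0.70, with 28 of 531 higher and 201 lower. Between 80 and 160 kb it was -1.26, with 5 of 433 higher and 257 lower, and beyond 160 kb -1.17, with 26 of 426 higher and 206 lower. Beside the 23.1% and 17.1% of all features, 38.4% were higher and 5.40% lower in the first 5 kb, and 1.15% were higher and 59.4% lower between 80 and 160 kb.

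**Figure D1:**
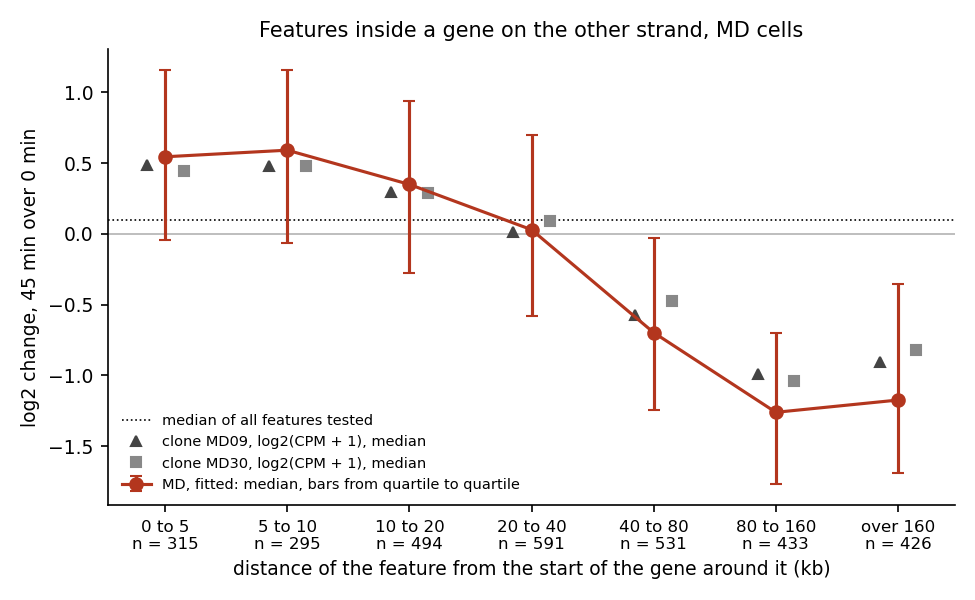
Log2 change over the first 45 min in MD cells (y axis) for nested features, grouped by distance from the start of the gene around them, in kb (x axis, with the number of features). Red points and bars are the fitted median and its quartiles, triangles and squares the median of clones MD09 and MD30 on the log2(CPM + 1) scale, and the dotted line the median of all features tested. The fitted median falls to -1.26 at 80 to 160 kb, against 0.55 within 5 kb. The clone medians fall to -0.99 in MD09 and -1.04 in MD30, against 0.49 and 0.45.

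Both clones gave the same profile. On the log2(CPM + 1) scale the median change within 5 kb was 0.49 in MD09 and 0.45 in MD30, and between 80 and 160 kb it was -0.99 in MD09 and -1.04 in MD30. The profile was also there among genes of like length. Within genes over 100 kb alone, the median was 0.75 in the first 5 kb (41 features), -0.06 at 20 to 40 kb (164 features) and -1.27 at 80 to 160 kb (407 features). Within genes under 40 kb it was 0.50 in the first 5 kb (222 features) and 0.10 at 20 to 40 kb (119 features).

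The same was seen inside single genes. Of 55 genes with nested features both within 40 kb and beyond 80 kb of the start, 51 had the near features above the far ones, with medians of 0.09 near and -1.42 far. Cenpp, a centromere protein gene, is a clear case, because 5 features lie along it. These are Ogn, Omd and Aspn, which encode small proteoglycans of bone and cartilage matrix, Ecm2, another matrix gene, and the pseudogene Tes3-ps.

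At 36.5 kb from the Cenpp start, Ogn stood at 236, 218, 255 and 192 CPM at 45 min, against 215, 226, 214 and 246 CPM at 0 min. These overlapped (log2 change 0.10 ± 0.16 SE, adjusted p = 0.655), and the sign turned under other settings. At 65.1 kb, Omd stood at 41.7, 31.9, 43.9 and 35.1 CPM at 45 min, against 61.3, 58, 84.8 and 83.5 CPM at 0 min.

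Omd thus fell with no overlap (-0.83 ± 0.24, adjusted p = 0.00852). At 96.8 kb, Aspn stood at 108, 123, 110 and 123 CPM at 45 min, against 360, 345, 378 and 428 CPM at 0 min (-1.60 ± 0.17, adjusted p = 4.94e-10). Ecm2, at 134 kb, changed by -1.34 ± 0.18 (adjusted p = 1.02e-07). Tes3-ps, at 157.8 kb, changed by -2.09 ± 0.46 (adjusted p = 0.000344). The 4 features beyond 60 kb fell, and the feature nearest the start did not pass the test.

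Hook3, which encodes an adaptor between microtubules and cargo, showed both directions in one gene. The feature 1700047A11Rik, 29.7 kb from its start, stood at 154, 138, 195 and 159 CPM at 45 min, against 73.8, 73.2, 68.8 and 77.7 CPM at 0 min, and rose by 1.24 ± 0.18 (adjusted p = 4.49e-07). The feature Gm45411, 91.4 kb from the start, stood at 184, 145, 153 and 166 CPM at 45 min, against 478, 394, 409 and 457 CPM at 0 min, and fell by 1.34 on the log2 scale (SE 0.16, adjusted p = 3.77e-09). In neither feature did the times overlap.

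In Pitpnc1, a phosphatidylinositol transfer protein gene, features fell throughout, by 1.09 at 38.7 kb, 1.42 at 82.7 kb and 1.86 at 139.8 kb on the log2 scale. In Ubac2, features named Gpr18 and Gpr183 after receptor genes of immune cells fell by 1.03 at 34.9 kb and 1.49 at 80.3 kb. Rab11fip4 did not show an even slope: Rab11fip4os1 changed by -0.21 at 23.9 kb, which did not pass, and Rab11fip4os2 by -0.44 at 81.5 kb (adjusted p = 0.0246), with sparse features between them. The last lost its call without any of MD09 0 min replicate 1, MD09 45 min replicate 2, MD30 0 min replicate 2 or MD30 45 min replicate 2 (adjusted p = 0.0607 to 0.183). In Ccdc88c the changes were -0.37 at 28.3 kb (adjusted p = 0.0523, which passed with the size factors of DESeq2) and -0.67 at 83.2 kb (adjusted p = 0.000338).

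**Figure D2:**
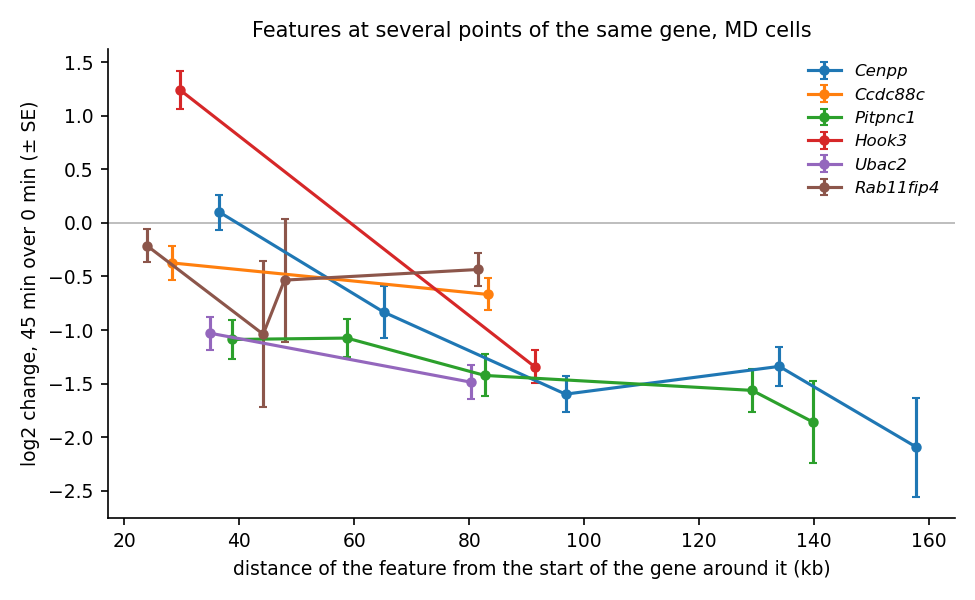
Log2 change over the first 45 min in MD cells (y axis, bars are ± 1 SE from the fit) for the features along each of 6 genes, placed by distance from the gene start in kb (x axis) and joined by lines. Hook3 drops to -1.34 at 91.4 kb, against 1.24 at 29.7 kb, and Cenpp to -2.09 at 157.8 kb, against 0.10 at 36.5 kb.

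Summed per gene, the nested reading covered 2424 genes, of which 461 rose (19%) and 677 fell (27.9%), beside 23% and 17% over all rows of that fit. Counts of the genes that rose came from a median of 11.8 kb past the start, in genes with a median span of 38.2 kb. Counts of those that fell came from a median of 74.7 kb, in genes with a median span of 134 kb. All genes tested this way had medians of 28.6 kb and 72.6 kb.

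Among genes that passed and averaged at least 20 CPM, Rgl1 had the largest rise (chromosome 1, 152516760 to 152766351, minus strand). It encodes an exchange factor of the Ral GTPases. Rgl1 was read through 1 feature, Apobec4. That feature stood at 46.5 and 63.2 CPM in MD09 and 74.3 and 47.9 CPM in MD30 at 45 min. At 0 min it stood at 11.3 and 10.7 CPM in MD09 and 12.2 and 15.1 CPM in MD30. The groups were far apart (2.37 ± 0.22, adjusted p = 2.1e-11), and the counts lay 12.3 kb from the start of a gene that spans 250 kb. Pcdh17, a protocadherin gene of cell adhesion, was also read through 1 feature, 9630013A20Rik. It stood at 84.2, 19.7, 54.3 and 27.1 CPM at 45 min, against 13.6, 1.78, 10.3 and 11.6 CPM at 0 min (2.36 ± 0.30, adjusted p = 9.74e-08). Its libraries spread widely but did not overlap. Eaf2, whose product binds the elongation factor ELL and stimulates elongation by polymerase II, stood at 98.8, 123, 138 and 90.7 CPM at 45 min, against 34, 24.9, 33.8 and 32.4 CPM at 0 min (1.98 ± 0.17, adjusted p = 7.57e-12). Necab3, a calcium-binding protein gene, stood at 87.8, 86.1, 91.4 and 76.8 CPM at 45 min, against 28.4, 19.5, 34.7 and 20.9 CPM at 0 min (1.81 ± 0.18, adjusted p = 2.46e-10).

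The other named risers by this reading changed by 1.61 to 2.13. They were Fam83e, Catspere2 (a subunit of a sperm calcium channel), Map1a (a microtubule-associated protein), Fam107b, Crat (carnitine acetyltransferase), C2 (a complement factor), Sh2d3c (an adaptor protein) and Ctsl (the lysosomal protease cathepsin L). The times overlapped in Sh2d3c. In all 12 named risers but Fam107b, whose counts lay 184 kb from the outermost annotated start, the counts lay 1.29 to 24.4 kb from the start.

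The largest fall by the same rule was that of Etl4 (chromosome 2, 19909780 to 20810713, plus strand), a gene of 901 kb. It was read 788 kb from its outermost annotated start, with a RefSeq start 380133 bases downstream of that. It stood at 28.2 and 32.6 CPM in MD09 and 31.2 and 32.7 CPM in MD30 at 45 min, against 218 and 165 CPM in MD09 and 188 and 219 CPM in MD30 at 0 min (-2.55 ± 0.17, adjusted p = 2.01e-14). All 45 min libraries were close together and far below all 0 min libraries. Cdk6, a kinase of the G1 phase, stood at 313, 245, 200 and 233 CPM at 45 min, against 1552, 1018, 952 and 1074 CPM at 0 min (-2.13 ± 0.17, adjusted p = 6.93e-13), and its own feature also fell (-1.61 ± 0.15, adjusted p = 4.79e-11). Map2, which encodes a microtubule-associated protein of neurons, stood at 14.1, 12.9, 8.76 and 13.6 CPM at 45 min, against 98.7, 63.9, 58.2 and 51 CPM at 0 min (-2.37 ± 0.21, adjusted p = 1.8e-11). Nek7, a kinase active in mitosis, stood at 18.3, 19.7, 22.4 and 22.9 CPM at 45 min, against 103, 94.1, 107 and 107 CPM at 0 min (-2.20 ± 0.20, adjusted p = 4.25e-11).

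Rai14 (an actin-associated protein), Fancc (a Fanconi anaemia gene of DNA crosslink repair), Zfyve28, Mast4 (a kinase), Cacna1a (a calcium channel subunit), Myo5a (a myosin motor), Ergic1 and Col5a1 (a collagen chain) fell by 2.08 to 2.40 on the log2 scale, with counts 54.5 to 572 kb from the outermost annotated start. In Fancc the RefSeq start lies 65533 bases downstream of that start. The 0 min library MD09 replicate 1 stood above its group in 5 of these genes. In Col5a1 it held 115 CPM, against 16, 15 and 19.7 CPM in the other 0 min libraries and 11.5, 5.8, 5.96 and 4.66 CPM at 45 min. Without that library Col5a1 changed by -1.22 in place of -2.40, Mast4 by -1.90 in place of -2.29 and Cacna1a by -1.87 in place of -2.18, and all 3 still passed.

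**Figure D3:**
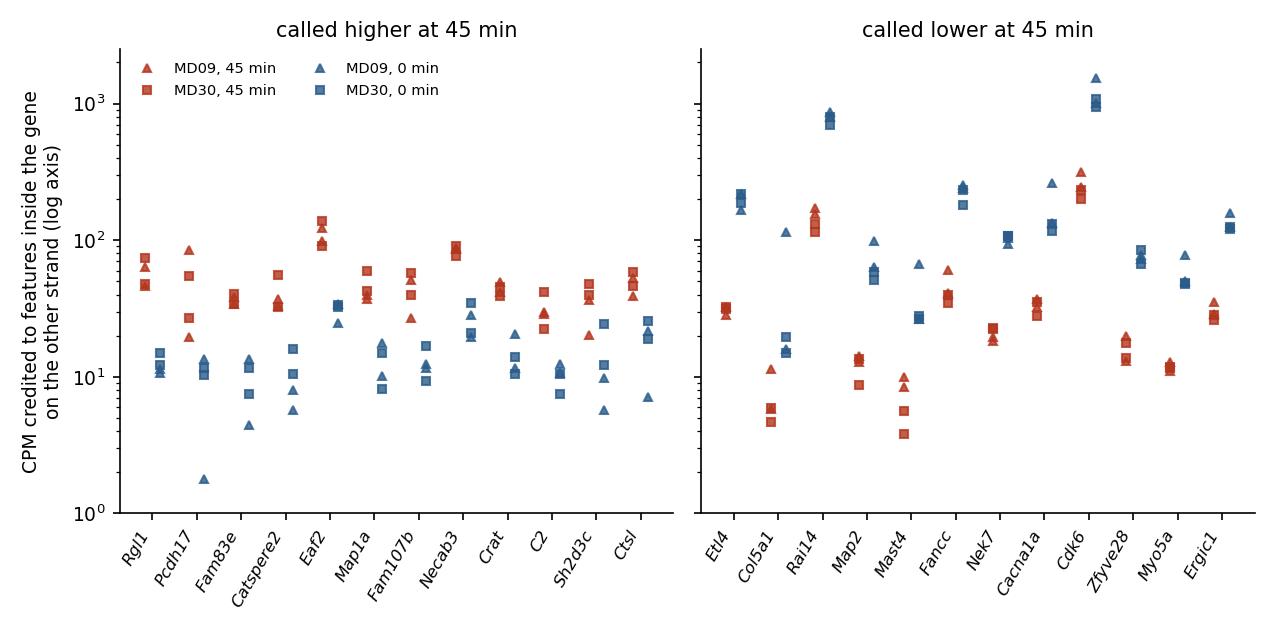
CPM in each of the 8 MD libraries (y axis, log axis) credited to features inside 12 genes called higher and 12 called lower, with red for 45 min and blue for 0 min, triangles for clone MD09 and squares for MD30. Necab3 lies at 76.8 to 91.4 CPM at 45 min, against 19.5 to 34.7 CPM at 0 min, and Etl4 at 28.2 to 32.7 CPM, against 165 to 219 CPM.

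The promoters of Eaf2, Necab3 and Map2 are shown as examples of an 82.1 kb gene that rose, a short gene that rose and a long gene that fell. Each is the 250 bases before the RefSeq start, from RefSeq on GRCm38 (mm10), written 5′ to 3′ on the gene's strand, with capitals marking CCAAT boxes (CCAAT), GC boxes (GGGCGG) and ETS cores (CCGGAA) on either strand.
Eaf2, chr16:36874827-36875076, minus strand: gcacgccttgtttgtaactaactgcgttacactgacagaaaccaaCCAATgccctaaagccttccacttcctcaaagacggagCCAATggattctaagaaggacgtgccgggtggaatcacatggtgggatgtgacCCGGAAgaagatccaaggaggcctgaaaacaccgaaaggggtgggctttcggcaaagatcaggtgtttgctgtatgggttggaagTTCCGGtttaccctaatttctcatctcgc
Necab3, chr2:154558855-154559104, minus strand: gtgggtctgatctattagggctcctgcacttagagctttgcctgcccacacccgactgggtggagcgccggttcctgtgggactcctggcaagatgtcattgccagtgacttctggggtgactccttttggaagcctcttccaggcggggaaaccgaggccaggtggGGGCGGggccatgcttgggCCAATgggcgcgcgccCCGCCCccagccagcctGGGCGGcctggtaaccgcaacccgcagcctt
Map2, chr1:66175079-66175328, plus strand: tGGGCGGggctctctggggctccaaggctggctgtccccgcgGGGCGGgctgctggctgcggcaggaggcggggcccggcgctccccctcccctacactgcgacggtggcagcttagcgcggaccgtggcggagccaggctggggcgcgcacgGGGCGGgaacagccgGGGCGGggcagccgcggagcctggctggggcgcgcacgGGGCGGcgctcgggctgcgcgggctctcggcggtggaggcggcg
To keep distance alike, motifs were counted in genes whose nested counts lay within 20 kb of the start. ETS cores were found in 25% of 260 promoters of genes that rose, 9.21% of 76 of genes that fell, 21.2% of all tested in that range and 14.2% of 20559 matched promoters. GC boxes were found in 65.8% of risers and 55.3% of fallers, on either side of the 61.5% of all tested in that range, beside 39.4% of all matched promoters. CCAAT boxes were found in 42.3% of risers, 32.9% of fallers, 37.0% of all tested in that range and 35.1% of all matched promoters. The TATA box (TATAAA) was found in 2.69% of risers, 9.21% of fallers, 4.76% of all tested in that range and 12.2% of all matched promoters. These shares are descriptions with no test.

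Set beside asynchronous cells of the same clones, 11820 features differed at 45 min (49.5%), 6110 higher (25.6%) and 5710 lower (23.9%). This comparison and that with 0 min share the 45 min libraries, so the counts that follow are not independent of each other. Of the 461 genes that rose by the nested reading, 148 were above the asynchronous level, 71 below it and 242 did not pass. Of the 677 that fell, 12 were above it, 560 below it and 105 did not pass. Pcdh17 was at 43.8 ± 1.06 CPM at 45 min and 4.04 ± 0.0846 CPM in asynchronous cells (SD, n = 2 clones), and Rgl1 at 60.6 ± 4.75 and 13 ± 0.953 CPM, so both stood above the asynchronous level (adjusted p = 1.15e-11 and 3.24e-13). Necab3, at 87.2 ± 0.275 CPM against 70.3 ± 2.9 CPM in asynchronous cells, did not pass (log2 difference 0.31, adjusted p = 0.0895). Nek7 was at 21.3 ± 2.79 CPM at 45 min and 178 ± 0.874 CPM in asynchronous cells. Map2 stood at 12.3 ± 1.58 CPM at 45 min and 17.9 ± 0.0339 CPM in asynchronous cells, with the difference not passing (adjusted p = 0.0536), while its 0 min level was 64.1 ± 15.9 CPM.

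The later libraries show how long the far ends stayed low. Relative to asynchronous cells, the median of features 80 to 160 kb from a start was -0.62 in MD09 and -0.82 in MD30 at 0 min, -1.53 and -1.68 at 45 min, -0.24 and -0.47 at 90 min and -0.28 and -0.52 at 180 min. Beyond 160 kb it was -0.77 in MD09 and -0.89 in MD30 at 0 min, -1.63 and -1.74 at 45 min, -1.40 and -1.45 at 90 min and -0.23 and -0.37 at 180 min. At 90 min this was the lowest bin in both clones. Ecm2, at 134 kb in Cenpp, was lowest at 45 min and nearer the asynchronous level from 90 min on, with 156 ± 6.3 CPM at 0 min, 61.7 ± 1.79 at 45 min, 510 ± 85.5 at 90 min, 380 ± 40.6 at 180 min and 403 ± 15.9 at 240 min, beside 625 ± 35.2 in asynchronous cells. The 90 min libraries of MD cells held 630119 to 1518400 counts, and the 2 of clone MD09 stood apart. They held 18686 and 49100 counts of mt-Nd5, against 1295 to 1718 in the other 46 libraries, and 61437 and 148248 counts of CT010467.2, against 598 to 716. In them 23 and 25 features exceeded 1 count per base, against 0 to 4 elsewhere. The MD30 values at 90 min, which do not rest on those libraries, were -0.47 at 80 to 160 kb and -1.45 beyond 160 kb.

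**Figure D4:**
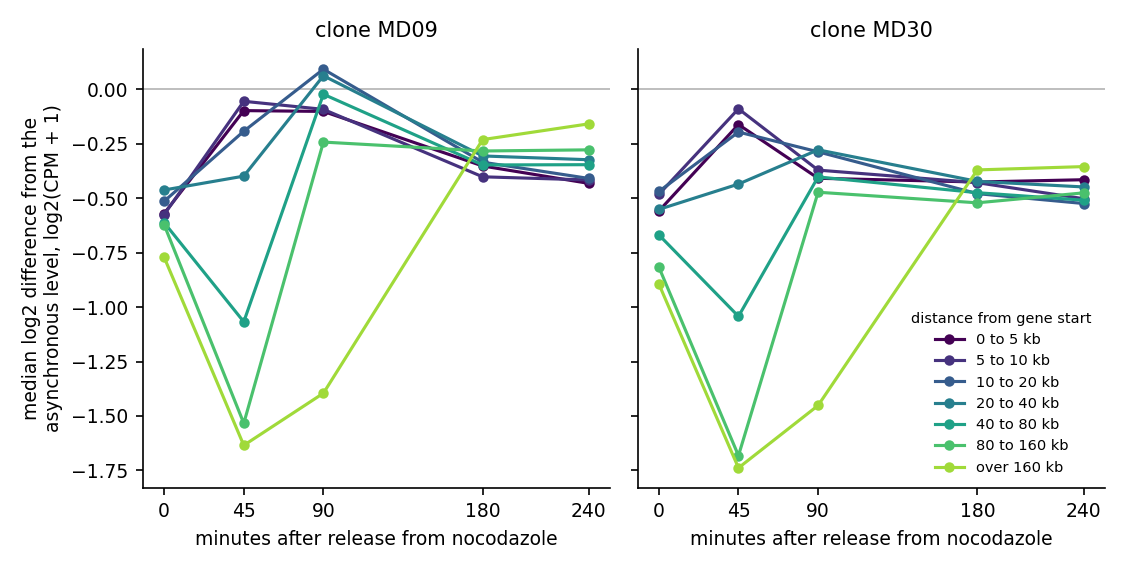
Median log2 difference from the asynchronous level of the same clone on the log2(CPM + 1) scale (y axis) for nested features in bins of distance from the gene start, against minutes after release (x axis), for clones MD09 and MD30. At 90 min the bin beyond 160 kb is at -1.40 in MD09 and -1.45 in MD30, and the other bins lie closer to 0 than this one at that time.

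Features that lie just past the end of a gene on the other strand changed too, and the change varied with that gene's length. Among features that overlap no gene, those within 2 kb past such an end had a median change of 0.57, with 599 of 1352 higher (44.3%) and 142 lower (10.5%). At 2 to 5 kb the median was 0.33, at 5 to 10 kb 0.18, and beyond 50 kb -0.06. Within 5 kb of the end of genes under 10 kb long, 394 of 739 features were higher (53.3%) and 57 lower (7.71%). Past genes of 80 to 160 kb, 24 of 183 were higher (13.1%) and 49 lower (26.8%).

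**Figure D5:**
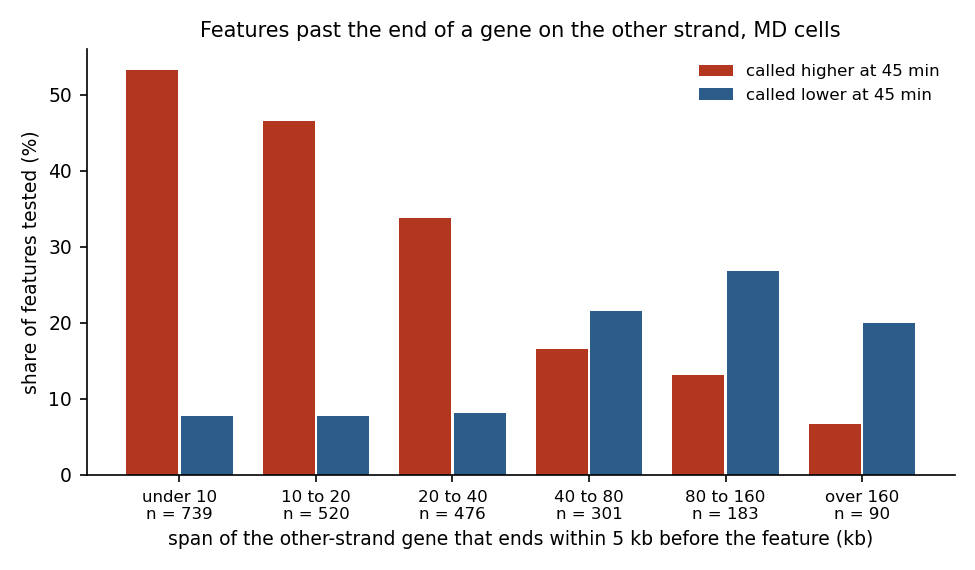
Share of features tested (y axis, %) called higher (red) and lower (blue) at 45 min in MD cells among features that overlap no gene and lie within 5 kb past the end of a gene on the other strand, by the span of that gene in kb (x axis, with the number of features). The share higher is 53.3% past genes under 10 kb and 6.67% past genes over 160 kb.

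Of the 15 named protein-coding features that rose, 8 lay within 5 kb past an other-strand end, against 1 of the 15 that fell. The share among all protein-coding features tested is not given here, so these counts are a description. Nfe2, named for a transcription factor of red cell and platelet formation, lies 1.52 kb past the end of Hnrnpa1, an RNA-binding protein gene. It stood at 328, 468, 389 and 336 CPM at 45 min, against 103, 79.4, 114 and 129 CPM at 0 min (1.98 ± 0.16, adjusted p = 8.94e-13). Ube2m, an enzyme that attaches NEDD8 to cullins, lies 4.08 kb past Trim28, a corepressor gene, and stood at 218, 262, 224 and 211 CPM at 45 min, against 62.4, 51.8, 59.3 and 76.5 CPM at 0 min (2.0 ± 0.16, adjusted p = 1.04e-12). Trpm5, a cation channel of taste cells, lies 1.22 kb past Cd81, a tetraspanin gene, and stood at 193, 252, 277 and 229 CPM at 45 min, against 68.1, 41.1, 70.6 and 69.6 CPM at 0 min (2.08 ± 0.17, adjusted p = 2.17e-12). In none of these did the times overlap. Fam184b lies 0.429 kb past Med28, a Mediator subunit gene (2.16 ± 0.16, adjusted p = 2.57e-13).

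Pex16 (peroxisome assembly), Hp (haptoglobin), Kcnj9 (a potassium channel) and Apobec2 (a cytidine deaminase family member of muscle) were the others near an end, and rose by 2.03 to 3.23. Not near an end were Camkk1, a calmodulin-dependent kinase kinase (4.23 ± 0.52, adjusted p = 1.22e-08), Wfdc21, Abhd16b, C1qtnf3, Mzf1, Mybphl and Carmil2, with rises of 2.08 to 3.39. Camkk1 had 14.2 ± 2.06 CPM at 45 min and 0.723 ± 0.319 CPM at 0 min.

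Among named features that fell, Slx1b, a subunit of a structure-specific endonuclease, stood at 55.4, 51, 55.6 and 59.9 CPM at 45 min, against 194, 251, 227 and 271 CPM at 0 min (-2.01 ± 0.16, adjusted p = 5.28e-13). Rgs10, a regulator of G protein signalling, stood at 8.96, 14.2, 10.3 and 13.7 CPM at 45 min, against 48.8, 77.7, 64 and 84.6 CPM at 0 min (-2.43 ± 0.20, adjusted p = 1.28e-12). Both were clear of overlap. Ehmt1, a histone H3 lysine 9 methyltransferase, fell (-1.59 ± 0.16, adjusted p = 9.26e-11), as did Mixl1, a mesendoderm factor (-2.68 ± 0.40, adjusted p = 6.57e-07), and Osr1, a factor of early kidney and limb (-3.50 ± 0.74, adjusted p = 0.000696). Prune1, Rnf7, Ampd1, Pzp, Gtsf2, Atp6v0e2, Cldn34a and Nepn fell by 1.66 to 2.79 on the log2 scale. Hgf, hepatocyte growth factor, held 0 counts in all 4 libraries at 45 min, against 0, 23, 23 and 0 counts at 0 min. It was at least 37.5-fold lower against a floor of 3 counts over the group, covering counting error only, and 1 library of each clone carried all its counts. Its fitted change (adjusted p = 0.0273) did not pass without MD09 0 min replicate 2 (adjusted p = 0.108) or MD30 0 min replicate 1 (adjusted p = 0.103).

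Of 27 SWI/SNF subunit genes by their own features, 9 rose (33.3%) and 4 fell (14.8%), beside 23.1% and 17.1% of all features. Their median was 0.25. None differed in its change from the R42A cells, but only 0.142% of all features did, so this is no result about the list. Smarcd2 (1.28 ± 0.16, adjusted p = 2.26e-08) stood at 168, 217, 176 and 171 CPM at 45 min, against 59, 90.1, 82.9 and 90.4 CPM at 0 min, and lies 0.059 kb past the end of Psmc5, a proteasome subunit gene. Smarcc2 (0.96 ± 0.17, adjusted p = 1.06e-05) lies 0.378 kb past Myl6, and Smarcb1 (1.01 ± 0.18, adjusted p = 1.3e-05) 0.828 kb past Derl3. Ss18l1, a BAF subunit of neurons, rose without such a neighbour (1.03 ± 0.18, adjusted p = 8.48e-06). Smarcc1, a core scaffold subunit (-0.96 ± 0.16, adjusted p = 3.65e-06), Ss18 (-0.91 ± 0.18, adjusted p = 7.97e-05), Arid2, the PBAF subunit (-0.75 ± 0.20, adjusted p = 0.00218), and Smarca4, the BRG1 ATPase (-0.46 ± 0.15, adjusted p = 0.0125), fell, the last not passing without MD09 0 min replicate 2 (adjusted p = 0.0576). The 14 others that did not pass, Smarce1 among them, had changes of -0.62 to 0.46. By the nested reading Bicra, a subunit of the GLTSCR1-containing complex, fell (-1.44 ± 0.15, adjusted p = 4.79e-10), read 69.7 kb from its start.

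Of 75 ribosomal protein genes, short and highly transcribed, 47 fell by their own features (62.7%, beside 17.1% of all features). By the same reading 3 rose (4%, beside 23.1%), and the median change was -0.59. Rpl4 stood at 95.4, 64.2, 71.5 and 97.6 CPM at 45 min, against 169, 176, 178 and 146 CPM at 0 min (-0.99 ± 0.15, adjusted p = 1.13e-06). Rpl21 and Rps24 changed by -1.05 and -0.93, while Rps10 (1.83 ± 0.29, adjusted p = 1.73e-06) and Rps14 (0.65 ± 0.14, adjusted p = 0.000358) rose. In counts, not CPM, the list summed to 5246 to 7458 per library at 45 min and 2741 to 4179 at 0 min. Ribosome biogenesis genes held 8 lower (25%) and 3 higher (9.38%) of 32, among them Ddx21 (-0.96 ± 0.15, adjusted p = 1.06e-06), Nolc1 (-0.73 ± 0.16, adjusted p = 0.000245) and Ncl, nucleolin (-0.85 ± 0.14, adjusted p = 4.47e-06).

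Mitochondrially encoded features were called lower in 7 of 9 cases and higher in none (77.8% lower, beside 17.1% of all features), with a median of -1.24 in CPM. Their counts, however, hardly moved with library depth. They summed to 4645 to 5224 counts per library at 45 min and 4119 to 5359 at 0 min, and mt-Nd5 alone held 1455 to 1589 counts at 45 min and 1356 to 1546 at 0 min. Outside the MD09 libraries at 90 min, mt-Nd5 held 1295 to 1718 counts in all 46 libraries of the study, whose totals differ much more. The counts of these features thus did not scale with depth, and the sources used here do not say whether reads at 1 position were merged before counting. Their share, 0.188 to 0.284% at 45 min and 0.426 to 0.657% at 0 min, follows the library totals, so the calls are not read here as a change in mitochondrial RNA.

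Immediate early genes, which respond to growth factors within minutes, held 14 higher (51.9%, beside 23.1% of all features) and none lower (beside 17.1%) of 27, with a median of 0.57. Fosl1, an AP-1 subunit, stood at 128, 121, 160 and 130 CPM at 45 min, against 87.4, 44.6, 69.7 and 63.8 CPM at 0 min (1.14 ± 0.15, adjusted p = 7.77e-08). Egr2 (1.47 ± 0.25, adjusted p = 8.75e-06), Klf10 (1.3 ± 0.24, adjusted p = 3.25e-05) and Maff (0.88 ± 0.18, adjusted p = 0.000104) also rose. In Egr2 the times touched: the highest 0 min library and the lowest 45 min library were both at 14.8 CPM.

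Targets of p53 held 10 higher (45.5%, beside 23.1% of all features) and 2 lower (9.09%, beside 17.1%) of 22, with a median of 0.67. Gdf15, a stress cytokine, stood at 29, 30, 34.7 and 31.2 CPM at 45 min, against 7.95, 13.4, 11.3 and 10.4 CPM at 0 min (1.61 ± 0.23, adjusted p = 2.95e-07). The apoptosis genes Aen (1.16 ± 0.23, adjusted p = 9.79e-05) and Bax (1.05 ± 0.23, adjusted p = 0.000342) rose with it, as did Zmat3 (0.94 ± 0.20, adjusted p = 0.00019), and Rrm2b and Tigar fell (-0.93 and -0.68).

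For each list below, the shares called are to be set beside the 23.1% higher and 17.1% lower of all features, and a share near these is no result about the list. Replication-dependent histone genes held 8 higher (14.5%) and none lower of 55, fewer in both directions than over all features. H2bc9 stood at 27 ± 0.738 CPM at 45 min and 6.12 ± 3.3 CPM at 0 min (2.15 ± 0.28, adjusted p = 5.2e-08), and H1f3 rose by 0.94 ± 0.17 (adjusted p = 1.25e-05). Genes of the G1/S transition held 11 higher (36.7%) and 2 lower (6.67%) of 30. Ccnd3, cyclin D3 (0.62 ± 0.14, adjusted p = 0.000539), E2f2 (1.12 ± 0.21, adjusted p = 4.8e-05) and Tyms, thymidylate synthase (1.21 ± 0.27, adjusted p = 0.000306), rose, and E2f1 fell (-0.74 ± 0.19, adjusted p = 0.00191). The 3 G1/S genes that could be read through nested features all fell: E2f3 (-0.80 ± 0.17, adjusted p = 0.000222), Pola1 (-1.04 ± 0.16, adjusted p = 2.06e-06) and Pole (-0.49 ± 0.18, adjusted p = 0.0226), read 44.8 to 103 kb from their starts. Pole did not pass without MD30 0 min replicate 2 (adjusted p = 0.0641).

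Genes of G2/M held 7 lower (21.2%) and 3 higher (9.09%) of 33 by their own features. Among those lower were Kif23, a kinesin of cytokinesis (-0.84 ± 0.20, adjusted p = 0.000853), and Bub1, a checkpoint kinase (-0.93 ± 0.27, adjusted p = 0.00535). Mki67, which encodes the Ki-67 proliferation antigen, went opposite ways by the 2 readings. Its own feature fell (28.2 ± 1.85 CPM at 45 min and 45.3 ± 6.37 CPM at 0 min; -0.68 ± 0.18, adjusted p = 0.00228), and the counts nested inside it, 6.83 kb from its start, rose (22.7 ± 0.89 CPM at 45 min and 10.2 ± 1.05 CPM at 0 min; 1.15 ± 0.25, adjusted p = 0.000239). Read through nested features, Cenpf, a kinetochore protein gene (1.38 ± 0.37, adjusted p = 0.00247), and Smc2, a condensin subunit gene (1.01 ± 0.24, adjusted p = 0.000774), rose as well, from counts 2.69 and 4.8 kb from the start.

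Pluripotency genes held 8 lower (28.6%) and 3 higher (10.7%) of 28. Nanog (17.7 ± 1.3 CPM at 45 min and 34.7 ± 1.92 CPM at 0 min; -0.97 ± 0.19, adjusted p = 6.57e-05), Lin28a (-0.78 ± 0.17, adjusted p = 0.000276), Klf2 (-1.11 ± 0.26, adjusted p = 0.000572) and Zfp42 (-0.65 ± 0.17, adjusted p = 0.00165) fell. Gdf3, a TGF-beta family ligand (1.01 ± 0.21, adjusted p = 0.000122), Fbxo15 (0.62 ± 0.15, adjusted p = 0.0011) and Dnmt3l (0.60 ± 0.19, adjusted p = 0.00885) rose, the last not passing with DESeq2 (adjusted p = 0.0963) or without MD09 45 min replicate 2 (adjusted p = 0.246). Of 11 Wnt targets by their own features, 2 rose and 2 fell (18.2% each). The 2 that could be read through nested features rose. Lgr5, a receptor of R-spondins, stood at 20.4, 16.8, 33.3 and 19.1 CPM at 45 min, against 3.4, 3.55, 5.63 and 8.11 CPM at 0 min (2.22 ± 0.34, adjusted p = 9.56e-07), and Axin2, a feedback inhibitor of the pathway, rose by 1.08 ± 0.24 (adjusted p = 0.000427).

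Among genes of polymerase II pausing and Mediator, 8 of 32 rose (25%) and 7 fell (21.9%), shares near those of all features. Cdk12, the kinase of elongating polymerase, fell by both readings (-1.13 ± 0.15, adjusted p = 9.24e-08, and -2.37 ± 0.32, adjusted p = 1.35e-07). Brd2 rose (0.98 ± 0.16, adjusted p = 3.19e-06), as did Med14 (1.27 ± 0.17, adjusted p = 1.27e-07). Med1 fell by the nested reading from counts only 7.56 kb from its start (-0.83 ± 0.19, adjusted p = 0.000544), so nearness to a start did not always go with a rise.

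Heat shock genes held 4 higher and 4 lower of 16, 25% each way and near the shares of all features. Hsf1, the heat shock factor, rose (1.84 ± 0.18, adjusted p = 7.18e-11) and lies 0.102 kb past the end of Dgat1, and Hspa4l rose (1.88 ± 0.23, adjusted p = 8.55e-09), whereas Hsp90ab1 (-0.66 ± 0.14, adjusted p = 0.000258), 0.104 kb past Slc35b2, and Dnajb1 (-0.90 ± 0.22, adjusted p = 0.000917) fell. Actin, SRF and YAP targets held 7 higher (28%) and 3 lower (12%) of 25, also near them. Vcl, the focal adhesion protein vinculin, stood at 244, 235, 327 and 278 CPM at 45 min, against 79.5, 75.9, 94.2 and 101 CPM at 0 min (1.73 ± 0.16, adjusted p = 1.85e-11), and Ajuba (1.36 ± 0.20, adjusted p = 7.04e-07) and Tagln2 (1.73 ± 0.33, adjusted p = 4.19e-05) rose, while Actb (-0.61 ± 0.17, adjusted p = 0.00422) and Actg1 (-0.83 ± 0.23, adjusted p = 0.00326), the cytoplasmic actins, fell.

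Nuclear envelope and pore genes held 10 higher (32.3%) and 4 lower (12.9%) of 31. Of the 8 read through nested features 4 fell and 1 rose, beside 27.9% and 19% of all genes read that way. Among the 4 were Nup188 (-0.81 ± 0.16, adjusted p = 9.85e-05) and Nup214 (-0.58 ± 0.17, adjusted p = 0.00491). Condensin, cohesin and CTCF genes held 7 higher (29.2%) and 6 lower (25%) of 24. Smc4, a condensin subunit, rose (0.97 ± 0.17, adjusted p = 8.51e-06) and lies 0.665 kb past Trim59. The cohesin loader Nipbl (-0.95 ± 0.17, adjusted p = 1.94e-05) and the cohesin subunit Stag1 (-1.01 ± 0.17, adjusted p = 9.91e-06) fell, and so did the cohesin regulator Pds5a by the nested reading (-1.25 ± 0.16, adjusted p = 6.14e-08). Polycomb genes held 8 higher (29.6%) and 3 lower (11.1%) of 27, near the shares of all features, with Jarid2 lower (-1.01 ± 0.14, adjusted p = 2.17e-07). Other genes named here were Xbp1, a factor of the unfolded protein response (1.3 ± 0.24, adjusted p = 7.83e-05), Grhl2, a factor of epithelial genes, by the nested reading (-1.35 ± 0.20, adjusted p = 8.41e-07), and Slc3a2, an amino acid transporter subunit (-1.17 ± 0.15, adjusted p = 2.47e-08).

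Markers of other cell types were counted as well. Of the 8 mesoderm markers tested 5 rose and 1 fell, of 11 endoderm markers 1 rose and 4 fell, of 5 neural markers 2 rose and 1 fell, of 11 trophoblast markers 5 rose and 1 fell, and of 7 fibroblast markers none passed, beside 23.1% and 17.1% of all features. Summed, mesoderm markers ran from 199 to 290 CPM at 45 min and from 97.0 to 117 CPM at 0 min, endoderm markers from 134 to 172 and from 175 to 235 CPM, and fibroblast markers from 96.7 to 129 and from 89.3 to 140 CPM. Their part in the other results was not tested.

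Set against the R42A clones over the same 45 min, the MD change differed in 34 of 23874 features (0.142%; 2516 at an unadjusted p under 0.05), with 22 more positive (0.0922%) and 12 more negative (0.0503%) in MD. The R42A cells by themselves had 11140 changes. Of the 9595 changes in MD cells 20 differed (0.208%), and of the 34 features 10 had changed in the same direction in both genotypes and 5 in opposite directions. The profile by distance was found in the R42A cells too, with median changes of 0.79 within 5 kb, 0.21 at 20 to 40 kb, -1.42 at 80 to 160 kb and -1.65 beyond 160 kb.

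Ank1, an ankyrin gene of the membrane skeleton, went opposite ways. In MD cells it stood at 52.2 ± 9.67 CPM at 45 min and 25.8 ± 6.36 CPM at 0 min, and in R42A cells at 89.6 ± 22.9 CPM at 45 min and 182 ± 44.2 CPM at 0 min, a difference in log2 change of 2.03 ± 0.26 (adjusted p = 1.33e-05). Iqsec3, an exchange factor of synapses, stood at 20.1 ± 1.83 CPM at 45 min and 5.87 ± 2.94 CPM at 0 min in MD cells, and 5.86 ± 2.08 and 11.9 ± 0.00435 CPM in R42A cells (2.78 ± 0.47, adjusted p = 0.00371). Map3k14, the NF-kappaB-inducing kinase, stood at 39.2 ± 3.96 and 19.1 ± 1.76 CPM in MD cells and at 13.6 ± 1.48 and 20.4 ± 1.61 CPM in R42A cells (1.61 ± 0.29, adjusted p = 0.00923), which did not pass without A04 0 min replicate 2 (adjusted p = 0.087). With 1 clone left out, Ank1, Iqsec3 and Map3k14 each missed the threshold at least once. These 3 were chosen after their values were seen. By the nested reading Irf1, an interferon response factor, rose in MD cells (145 ± 4.49 CPM at 45 min and 93.3 ± 12.1 CPM at 0 min; 0.65 ± 0.15, adjusted p = 0.000694) and rose more in R42A cells (1.63 ± 0.16, adjusted p = 6.26e-11), a difference of -0.99 ± 0.22 (adjusted p = 0.0483). The difference of the Irf1 change was close to the threshold.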

How the data were processed

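The authors deposited raw whole-number counts for each gene symbol, a table for every library, with no scaling. Per the submitters' processing notes, the tools were Trim Galore 0.60, STAR 2.7.1a and RSEM 1.3.0, and the build mm10. The 5 counter entries were dropped. Of 55291 symbols, 53186 took coordinates from GENCODE M21. Libraries of a clone and condition were summed (24 sums, 1 fit with a term per clone) and tested with R 4.3.3 and edgeR 4.0.16 (robust quasi-likelihood test, TMM, filterByExpr minimum count 10 and total 15, Benjamini-Hochberg at 0.05). CPM was computed from the counts, with SD over clones. Replicate libraries differed beyond counting noise, with 1.35 to 4.93 for chi-square over its degrees of freedom, and same-numbered libraries were not treated as pairs. The members and all lists were chosen with earlier results of these data known. Named features were protein-coding, passed with both clones on one side, lay for at most 50% of their length under an other-strand gene, and were the 8 of largest fold (at least 5 CPM) and the 8 of smallest p (at least 20 CPM) per direction, with up to 4 members of a list per direction, not all of which are given. Nested genes were the 12 of largest change per direction at 20 CPM or more, a rule set after seeing the data. In simulated counts of 23874 features, 100 were changed 2-fold and 100 4-fold. The 45 against 0 min test recovered 42% and 83% of them, and 5.3% of its 132 calls were false. The data gave 9595 calls, so these shares describe the simulation and not the power in the data. Alternatives were DESeq2 1.42.0, its size factors, no filter, no clone term, single libraries, a replicate block, subsets of sums, overlap crediting, and features, libraries or clones left out.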

Additional observations from a re-analysis of the deposited data

Results flagged for a closer look

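Of 309 groups of 4 libraries checked for a library far from the other 3, 17 had one, where chance flags about 1 in 20. In the 0 min group, MD09 replicate 1 stood above the others for counts inside Col5a1 (115 CPM), Mast4 (67.0 CPM), Cacna1a (262 CPM), Myo5a (78.3 CPM) and Ergic1 (159 CPM) and for Egr2 (14.8 CPM), and below them for counts inside Pola1 (89.6 CPM) and for Bax (7.95 CPM). MD09 replicate 2 at 0 min was low for Trpm5 (41.1 CPM). MD30 replicate 2 at 0 min was high for Tes3-ps (18.6 CPM), Cldn34a (23.2 CPM), Zmat3 (33.6 CPM) and H1f3 (85.8 CPM). At 45 min MD09 replicate 2 was high for Gm11712 (58.4 CPM), Smarcd2 (217 CPM) and Ccnd3 (361 CPM), and MD30 replicate 1 low for Abhd16b (13.8 CPM).

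The change over 45 min differed between MD and R42A cells, by the interaction in edgeR's quasi-likelihood test, for Ank1 (2.03), Iqsec3 (2.78), Map3k14 (1.61) and counts inside Irf1 (-0.99).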

How the results depend on the processing

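The number of features changed in MD cells stayed within 1.5 times 9595 under every alternative but leaving out a clone, and ranged from 5284 (without clone MD09) to 9516 with 1 library or clone left out (6318 without clone MD30). The comparison with asynchronous cells ran from 8497 to 11572 in the same way. The 34 features that differed between genotypes were less stable: 64 with DESeq2, 126 with no filter, 119 without the 90 min libraries, 2 with no clone term, 22 with libraries fitted singly, 22 with the replicate block, and 1 to 62 with a library or clone left out (19 without A10 0 min replicate 1, 62 without A10 0 min replicate 2, 22 without A10 45 min replicate 2, 17 without MD09 45 min replicate 2, 21 without MD30 0 min replicate 1, 3 without clone A04, 4 without A10, 1 without MD09, 3 without MD30). Same-numbered libraries deviated together in 7 of 30 pairs (correlation over 0.1; range -0.14 to 0.47). The replicate block gave 9266 calls for 45 against 0 min in MD, beside 9192 without it.

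The gap between features under 10 kb and over 80 kb from a start was 1.79 log2 units, 1.82 with DESeq2, 1.45 with no filter, 1.80 with the MD sums alone, 1.89 with the 4 sums of 45 and 0 min alone, and 1.70 to 1.86 with a library or clone left out. Ogn turned to -0.039 with the DESeq2 size factors and with DESeq2, -0.027 with single libraries, -0.022 with the block, -0.021 without 90 min and -0.000562 with the MD sums alone, and ran from -0.019 to 0.187 with a library or clone left out. Smarce1 turned to -0.047 with the DESeq2 size factors and with DESeq2, -0.020 with single libraries, -0.024 with the block, -0.028 without 90 min and -0.00995 with the MD sums alone, and ran from -0.051 to 0.208 with a library or clone left out. Rab11fip4os1 ran from -0.495 to 0.019 in the same way. Neither Ogn, Smarce1 nor Rab11fip4os1 passed the test in the fit reported, and the cause was not tested. Of the values of single genes, 59 (in 38 results) fell short of the threshold when a library or clone was left out and 5 (in 3 results) under another alternative. Without clone MD09 alone these were Actb, Actg1, Arid2, Bax, Bub1, Cenpf, Dnajb1, E2f1, Fbxo15, Gdf3, Hsp90ab1, Lin28a, the own feature of Mki67, Nolc1, Nup214, Rps14, Tyms, Zfp42, Zmat3 and a feature in Pitpnc1. Without clone MD30 alone they were Aen, counts inside Irf1, Maff, Omd, Smc2 and Tes3-ps. Rrm2b, Tigar, Pole, Smarca4, Hgf and Rab11fip4os2 were lost without either clone, and Dnmt3l without MD09. Under the no-clone-term fit Ank1 and Iqsec3 missed the threshold, and Dnmt3l with DESeq2, single libraries and the block. Calls lost without 1 library are given beside their values above. The MD sums alone give no difference between genotypes.

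Where a clone was left out, the lone clone was assumed to vary like the other groups. Limits are few clones (n = 2), deeper libraries at 45 min than at 0 min, a strand setting not given in the sources used here, and distances measured from the outermost annotated start. The nested reading covers only genes that hold a feature on the other strand.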
